A study of Triticum aestivum with 24 samples.

Results

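The comparison followed small RNAs in leaves of heat-stressed wheat over the whole recovery, by setting the libraries taken 4 days after treatment (Heat 4 DAT) against those taken at the end of the stress (Heat 0 DAT). It covered all 202 microRNA (miRNA) tags of the deposited count table, from 37 families, in 8 of the 24 libraries of the series. The libraries were chosen by their labels alone. Both groups were plants of Triticum aestivum cv Chinese Spring, a hexaploid bread wheat, grown at 18 °C by day and exposed at the boot stage to 37 °C for 5 days with ample water. Heat 4 DAT had 4 further days under the control conditions, and Heat 0 DAT had none. Each group held 4 replicates, each a pool of RNA from 18 plants, and every plant was sampled on each day, so that a replicate number stood for the same plants in both groups. Control 4 DAT and Control 0 DAT, with 4 pools each, were plants of the same age that stayed at the growth temperature, and they gave the change over the same days without stress. All plants descended from a single selfed plant, so the groups spoke for 1 genotype. The table held only miRNA tags, so the leaf identity of the samples could not be checked against marker transcripts.

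Plant miRNAs are cut by a Dicer-like enzyme from the stem of a folded precursor, from its 5p or its 3p arm, and guide Argonaute proteins to mRNAs that pair with nearly their whole length. Several conserved families restrain transcription factors, such as miR166 the class III homeodomain-leucine zipper factors, miR156 the SPL factors and miR169 the NF-YA subunits. Others respond to nutrients: miR398 and miR528 lower the mRNAs of copper-containing proteins, miR399 the ubiquitin-conjugating enzyme PHO2 of phosphate uptake, and miR395 the enzymes and transporters of sulfate assimilation. The families miR1120, miR1121 and miR1133 come from precursors that resemble transposable elements.

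Of the 202 tags, 11 differed between Heat 4 DAT and Heat 0 DAT (5.45%; edgeR quasi-likelihood test, FDR below 0.05 over all tags). Higher in Heat 4 DAT were 5 tags (2.48%), namely miR399-18-3p, miR528-1.1-5p and miR528-1.2-5p, and of miR166 the tags miR166-11-5p and miR166-7.1-3p. Lower were 6 tags (2.97%), miR169-34-3p, miR1120-2337-3p, miR166-13-3p, miR1121-18-3p, miR1133-72-3p and miR166-5.1-3p. In control plants 0 of 202 tags differed between the same days (0.0%), with 7 at an unadjusted p below 0.05, against 44 in heat-stressed plants. The likelihood ratio test and DESeq2 also called 0 tags in control plants. The count of higher tags was 3 without Heat 0 DAT replicate 1 and likewise 3 without Heat 0 DAT replicate 4. The RPM values of the 4 Heat 4 DAT libraries all lay above those of the 4 Heat 0 DAT libraries for 14 tags (6.93%) and all below for 14 others (6.93%). The called tags are shown here with bases 2 to 8, the seed, in capitals, since these sequences are what the counts refer to. The tags that were higher in Heat 4 DAT were the following.
miR528-1.1-5p: gCAGCAGCggtggaaggggc
miR528-1.2-5p: tGGAAGGGgcatgcagaggag
miR399-18-3p: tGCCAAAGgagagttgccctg
miR166-11-5p: gGAATGTTgtctggctcgggg
miR166-7.1-3p: tCGGACCAggcttcaatcc

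The tags that were lower in Heat 4 DAT were the following, with miR1121-18-3p and miR1133-72-3p turned to the strand of the mature miRNA.
miR169-34-3p: gGCGGTCAccttggctagc
miR1120-2337-3p: tTCTTATAttatgggact
miR166-13-3p: tCGGACCAggcttcattc
miR1121-18-3p: aGTGATCTaaacgctctta
miR1133-72-3p: aGTACAAAgttgggtcat
miR166-5.1-3p: tCGGACCAggcttcaatc
The 3 called 3p tags of miR166 shared 1 seed, which 10 tags of the table carry, and of the 3 called tags 1 was higher and 2 were lower. Each of the other 8 called tags had a seed that no other tag of the table holds.

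**Figure D1:**
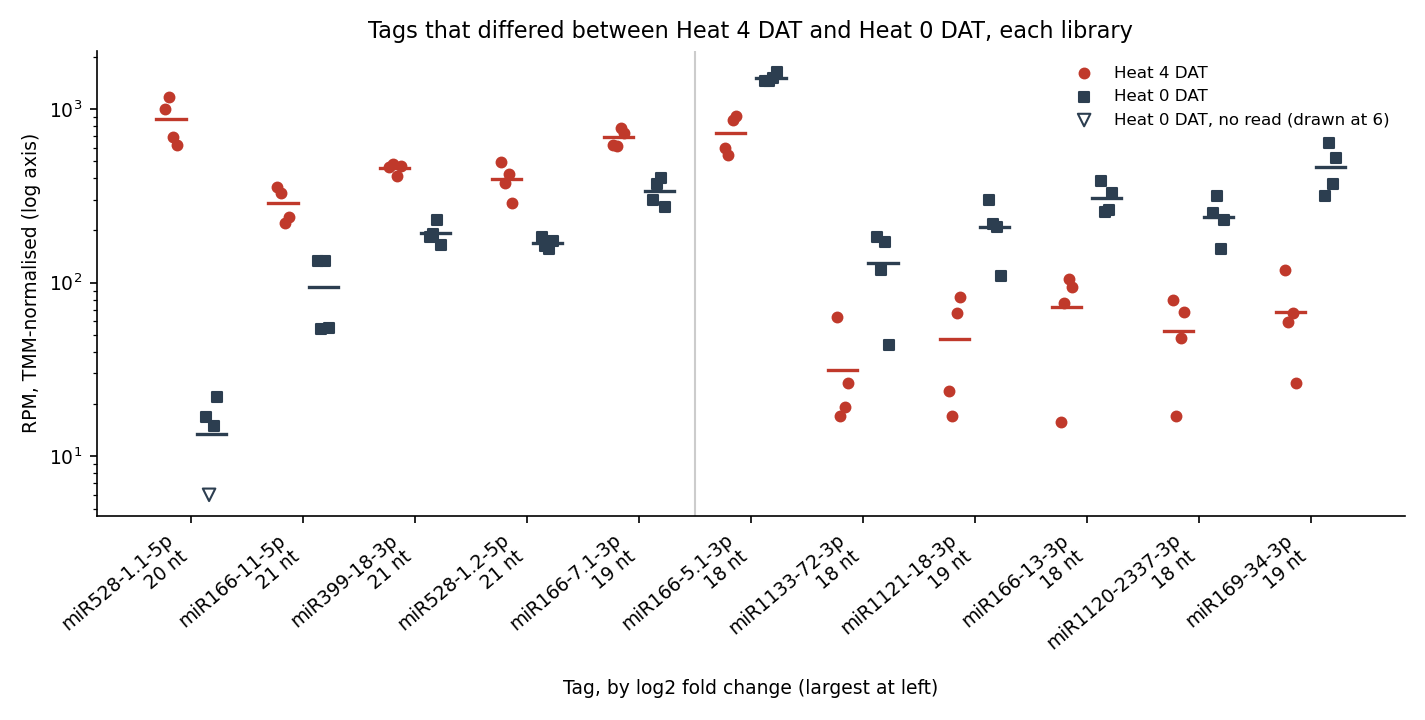
RPM (TMM-normalised reads per 1000000, log axis) of the 11 called tags in each of the 4 Heat 4 DAT libraries (red circles, left) and the 4 Heat 0 DAT libraries (dark squares, right), with a line at each group mean and an open triangle for a library without a read. The groups are apart for 10 of the 11 tags and overlap for miR1133-72-3p, and 5 of the 6 tags that were lower in Heat 4 DAT average 31.4 to 72.9 RPM there.

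Both depth and the spread between replicates bear on the precision of single tags. Pairs of replicates within a group had a chi-square per degree of freedom of 5.44 to 71.5. The Heat 4 DAT libraries held 115904 to 300261 miRNA reads and 199 to 202 of the tags, and the Heat 0 DAT libraries held 68947 to 123731 reads and 195 to 200.0 of the tags. RPM here are TMM-normalised reads per 1000000, a level scaled so that most tags match between libraries, and 1 read was worth 3.76 to 9.59 RPM in Heat 4 DAT and 7.45 to 16.7 RPM in Heat 0 DAT. Family miR166 took 83.1% ± 3.53 of the reads in Heat 4 DAT and 78.6% ± 3.14 in Heat 0 DAT (SD, n = 4 each; exact permutation p = 0.143). The calls depended on the scaling. With TMM the median log2 fold change of all tags was -0.02 and the calls split into 5 higher and 6 lower. With the library total alone the median moved by -0.43 and the split was 1 higher and 13 lower, while scaling on the tags outside miR166 moved it by 0.16 and gave 8 higher and 5 lower. Of the 5 higher tags, only miR528-1.1-5p was called with the library total, and the FDR of the other 4 was then 0.0740 to 0.282. Changes are therefore read against the median of all tags.

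The largest log2 fold change among the called tags was that of miR528-1.1-5p. miR528-1.1-5p had 1005, 1170.2, 690.4 and 619.8 RPM in the Heat 4 DAT libraries, against 16.7, 0, 14.9 and 21.8 RPM in the Heat 0 DAT libraries. These rest on 127, 138, 72 and 165 reads in Heat 4 DAT and on 1, 0, 2 and 2 reads in Heat 0 DAT, so the tag was nearly absent at the end of the stress. The library without a read held 86945 miRNA reads, and a count of 0 there allows up to 3 reads, or 27.2 RPM. The means were 871 ± 260.3 RPM in Heat 4 DAT and 13.4 ± 9.38 RPM in Heat 0 DAT (SD, n = 4 each), a log2 fold change of 6.00 (SE 0.57, FDR = 2.22e-08). Summed over libraries, its share of all reads was 48.1 times as high in Heat 4 DAT, with an exact 95% interval of 20.5 to 149 that covers counting error only. The call was made in each of the 18 alternative fits.

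The second tag of the 5p arm changed less. miR528-1.2-5p had 499, 373, 422 and 289 RPM in Heat 4 DAT, against 184, 163, 157 and 175 RPM in Heat 0 DAT. The groups did not overlap, and the Heat 0 DAT libraries lay close together. The log2 fold change was 1.22 (SE 0.31, FDR = 0.0149), and without Heat 0 DAT replicate 3 the FDR was 0.0525. The remaining 3 tags of the family did not pass the test. The 3p tags miR528-1.3-3p and miR528-1.4-3p averaged 128 ± 49.3 and 106 ± 46.4 RPM in Heat 4 DAT and 88.7 ± 31.5 and 54.6 ± 58.1 RPM in Heat 0 DAT, with overlapping libraries (FDR = 0.711 and FDR = 0.477). miR528-1.5-5p had 8.48 to 47.5 RPM in Heat 4 DAT and 33.5 to 89.4 RPM in Heat 0 DAT (FDR = 0.315).

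The 5 tags come from 1 precursor on chromosome 5A (663320619 to 663320737, IWGSC RefSeq v1.0), shown to place the tags that behaved differently, with the bases covered by any of them in capitals.
pre-miR528-1: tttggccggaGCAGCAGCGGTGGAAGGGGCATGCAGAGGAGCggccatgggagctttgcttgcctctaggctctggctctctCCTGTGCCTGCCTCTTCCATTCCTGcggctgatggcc
miR528-1.1-5p covers bases 11 to 30 of the precursor and miR528-1.2-5p bases 21 to 41, so that they share 10 bases. miR528-1.5-5p starts 1 base after miR528-1.2-5p, at base 22. Within the family, miR528-1.1-5p made up 56.8% ± 5.80 of the miR528 reads in Heat 4 DAT and 3.93% ± 3.02 in Heat 0 DAT. miR528-1.2-5p made up 26.5% ± 5.29 in Heat 4 DAT and 47.0% ± 14.7 in Heat 0 DAT. In control plants the share of miR528-1.1-5p was 62.4% ± 11.7 at 4 DAT and 55.8% ± 10.3 at 0 DAT (SD, n = 4 each), so the main tag of the family was the same on both days there. The Heat 0 DAT shares rest on 17 to 63 miR528 reads a library, and those of Heat 4 DAT on 131 to 306.

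Summed over its tags, family miR528 had 1899, 1789, 1256 and 1149 RPM in Heat 4 DAT, against 284, 445, 470 and 328 RPM in Heat 0 DAT. All Heat 4 DAT libraries were above all Heat 0 DAT libraries. The log2 fold change was 1.98 (SE 0.29, FDR = 2.63e-05 over 37 families). The rise came largely from miR528-1.1-5p, which made up 56.8% of the miR528 reads in Heat 4 DAT and 3.93% in Heat 0 DAT. The median log2 fold change of the 5 tags was 0.78. The change of 1.98 is therefore not that of miR528-1.2-5p, the only miR528 tag among the study's selected degradome targets. Of the 37 families, 2 were called (5.41%), miR528 and miR399. Without Heat 0 DAT replicate 4 only miR528 was called, with FDR = 0.0633 for miR399, and without Heat 4 DAT replicate 4 there were 4 called families. Family miR399 was also not called with the library total (log2 fold change 0.82, FDR = 0.0728).

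miR399-18-3p, the only tag of its family here, had 467, 483, 412 and 473 RPM in Heat 4 DAT, against 184, 191, 231 and 164 RPM in Heat 0 DAT. The 4 libraries of each group lay within a narrow range and far from the other group. The log2 fold change was 1.24 (SE 0.32, FDR = 0.0166), and the FDR was 0.0524 without Heat 0 DAT replicate 1 and 0.0647 without Heat 0 DAT replicate 4.

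The other nutrient families did not pass the test. miR398-1.2-3p had 222, 67.8, 115 and 203 RPM in Heat 4 DAT, against 83.7, 0, 44.7 and 0 RPM in Heat 0 DAT, higher in 4 of 4 pools. Its log2 fold change was 2.41 (SE 1.06, FDR = 0.189) on 102 reads in Heat 4 DAT and 11 in Heat 0 DAT, and with these 2 groups fitted alone the FDR was 0.0425. miR398-1.1-5p had at most 45.1 RPM in any of the 8 libraries. miR395-18-3p had 28.8 to 432 RPM in Heat 4 DAT and 10.9 to 436 RPM in Heat 0 DAT, with 1 pool in each group far above the rest. miR395-41-3p had 0 to 33.8 RPM in Heat 4 DAT and 0 to 99.8 RPM in Heat 0 DAT, and miR395-7-3p had 1 library with reads in each group, of 2 reads and 1 read. Over the 11 tags of miR528, miR398, miR399 and miR395, 3 were called higher and 0 lower, against 2.48% higher and 2.97% lower over all tags, and the median log2 fold change was 0.78, against -0.02 over all tags. Of these 3 calls 2 came from miR528, which held 5 of the 11 tags, all from 1 precursor, and none came from miR398 or miR395. The median of this list was above that of all tags under each of the 4 scalings. These move all tags nearly alike, so they could hardly change that order and are no check of it.

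The change in heat-stressed plants was then set against that in control plants. The difference of the changes passed the test for 2 of 202 tags (0.99%), both of miR528, with 17 tags at an unadjusted p below 0.05. miR528-1.1-5p averaged 668 ± 119.9 RPM in Control 4 DAT and 1012 ± 508 RPM in Control 0 DAT, and its change in heat-stressed plants exceeded that in control plants by 6.58 on the log2 scale (SE 0.70, FDR = 1.79e-07). miR528-1.2-5p averaged 240.2 ± 102 RPM in Control 4 DAT and 338 ± 35.1 RPM in Control 0 DAT, and the difference was 1.70 (SE 0.42, FDR = 0.0466). The second of these calls was not made with the replicate block, where the plants of a pool are matched between days (FDR = 0.109), nor in 7 of the 8 fits that each left out 1 library. For miR399-18-3p the difference was 1.64 (FDR = 0.0553), with 199 ± 43.3 RPM in Control 4 DAT and 273 ± 99.5 RPM in Control 0 DAT. Summed per family, 2 of 37 families passed (5.41%), miR528 with a difference of 2.62 (FDR = 4.31e-05) and miR399 with 1.65 (FDR = 0.0247). In control plants 0 families differed between days (0.0%), with 3 at an unadjusted p below 0.05. One of these 3 was miR528, with a log2 change of -0.64 in control plants (quasi-likelihood test, unadjusted p = 0.0271). Its difference of 2.62 thus holds this fall beside the change of 1.98 in heat-stressed plants. These family values are for the sum over tags, where the rise in heat-stressed plants came largely from miR528-1.1-5p.

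**Figure D2:**
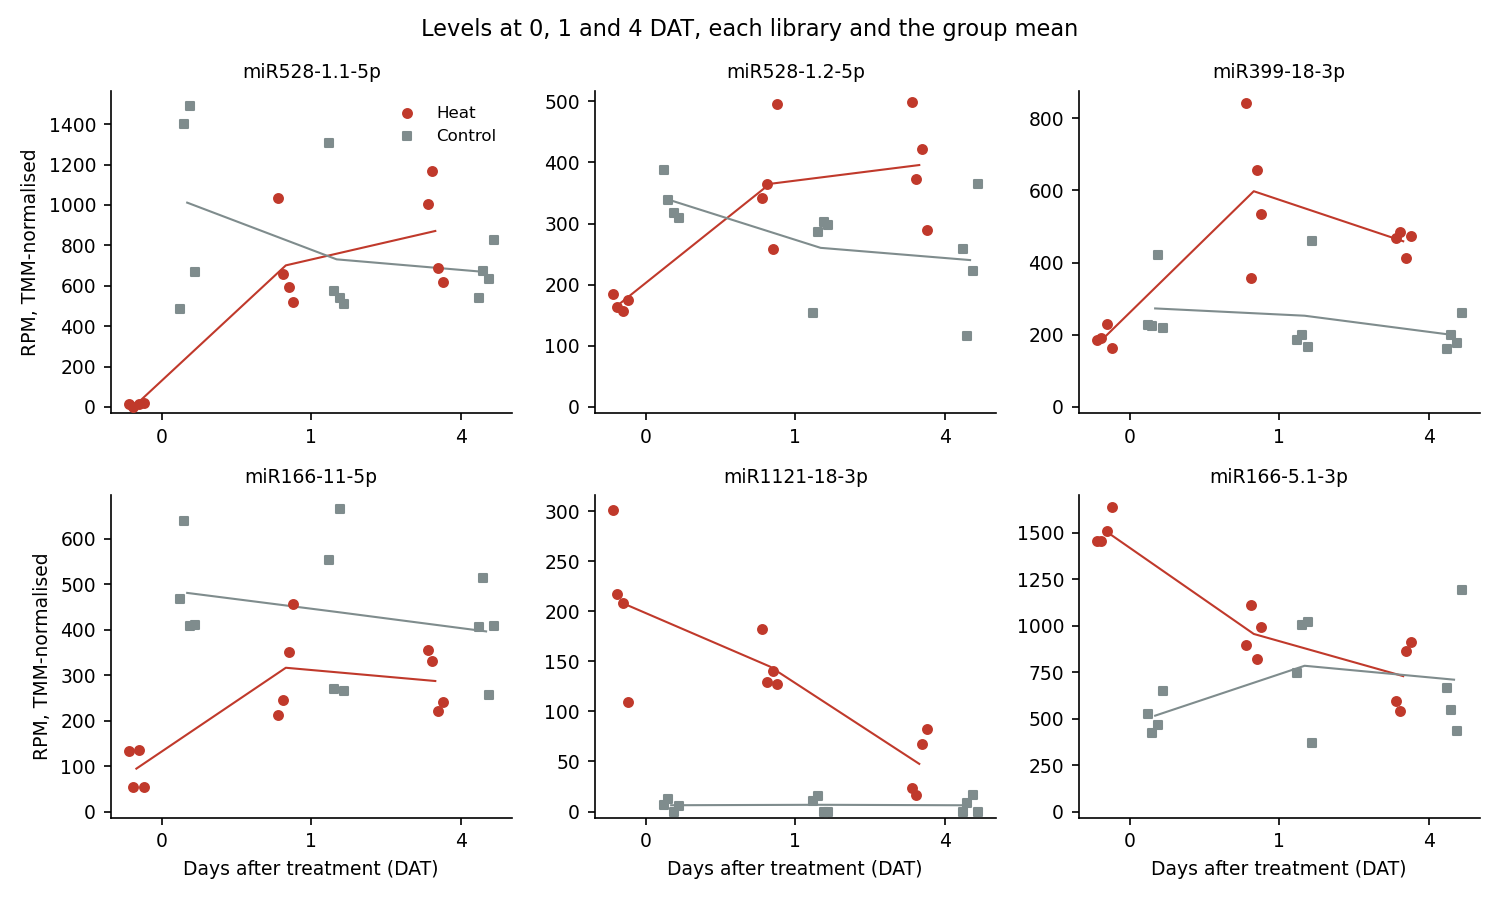
RPM (linear axes that differ between panels) of 6 called tags at 0, 1 and 4 days after treatment, drawn at equal spacing, in each heat library (red circles) and control library (grey squares), 4 per group, with lines through the group means. The Heat 0 DAT libraries lie apart from those of Heat 4 DAT in each panel. The control means of miR1121-18-3p are 6.27, 6.71 and 6.21 RPM and rest on at most 4 reads a library.

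The libraries of heat-stressed plants at 1 DAT, which entered the fit but not the comparison, placed these changes in time. miR528-1.1-5p averaged 13.4 RPM at 0 DAT, 701 ± 228 RPM at 1 DAT and 871 RPM at 4 DAT. The mean at 1 DAT lay within 1 SD of that at 4 DAT. miR528-1.2-5p averaged 169.7, 365 and 396 RPM on these days, and miR399-18-3p 192, 598 and 459 RPM, with the highest mean at 1 DAT. miR166-11-5p averaged 94.3, 316 and 287 RPM. Of the lower tags, miR1121-18-3p averaged 209, 145 and 47.6 RPM, and miR1133-72-3p 129, 104 and 31.4 RPM, with the larger part of the difference in RPM after 1 DAT. miR1120-2337-3p averaged 239, 87.5 and 52.9 RPM and miR169-34-3p 463, 192 and 67.9 RPM, with the larger part before 1 DAT.

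The 6 tags that were lower in Heat 4 DAT were 18 or 19 nt long. miR169-34-3p, of 19 nt and from the 3p arm, had 119, 59.4, 67.1 and 26.3 RPM in Heat 4 DAT, against 318, 635, 373 and 524 RPM in Heat 0 DAT. Its libraries did not overlap, and the log2 fold change was -2.84 (SE 0.55, FDR = 0.00273), called in each of 18 alternative fits. In control plants it averaged 77.8 ± 34.9 RPM at 4 DAT and 181 ± 152 RPM at 0 DAT, a log2 change of -1.17 (unadjusted p = 0.0424, FDR = 1.00). Its sequence is the end of miR169-35-3p, of 20 nt, which had 55.4, 25.4, 9.59 and 11.3 RPM in Heat 4 DAT, against 201, 136, 112 and 32.8 RPM in Heat 0 DAT (log2 fold change -2.24, FDR = 0.0600). With the replicate block the FDR of miR169-35-3p was 0.0421. All 8 tags of miR169 had a log2 fold change below 0 with TMM, 1 of them called. The most abundant, miR169-45-3p of 22 nt, averaged 544 ± 324 RPM in Heat 4 DAT and 1142 ± 586 RPM in Heat 0 DAT (FDR = 0.215). The study's selected degradome targets list NF-Y subunits for miR169-51-3p and miR169l-1, not for miR169-34-3p. Named after their values were seen, these had 14, 12, 11 and 9 reads, and 162, 7, 57 and 21 reads, in Heat 4 DAT. In Heat 0 DAT they had 11, 18, 19 and 12 reads, and 17, 38, 13 and 143 reads. Neither was called.

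Families from precursors that resemble transposable elements held 101 of the 202 tags and 3 of the 6 lower tags. miR1120-2337-3p, of 18 nt, had 79.1, 17.0, 47.9 and 67.6 RPM in Heat 4 DAT, against 251, 318, 157 and 229 RPM in Heat 0 DAT (log2 fold change -2.10, SE 0.44, FDR = 0.00311). miR1121-18-3p, of 19 nt, had 23.7, 17.0, 67.1 and 82.6 RPM in Heat 4 DAT, against 301, 218, 209 and 109 RPM in Heat 0 DAT (log2 fold change -2.01, SE 0.49, FDR = 0.0128). Neither tag had overlapping groups. miR1121-18-3p stood at a far lower level in control plants, with 6.21 ± 7.92 RPM at 4 DAT and 6.27 ± 5.24 RPM at 0 DAT. It had at most 4 reads in any control library. A tag had to reach a minimum level in 1 library or more to be kept by the authors, and the part of this rule in that contrast was not tested. miR1133-72-3p, of 18 nt, had 63.3, 17.0, 19.2 and 26.3 RPM in Heat 4 DAT, against 184, 118, 171 and 43.7 RPM in Heat 0 DAT (log2 fold change -2.003, SE 0.53, FDR = 0.0166). It was lower in 4 of 4 pools although the groups overlapped, rests on 2 to 23 reads a library, and lost the call in 5 of the 8 fits that left out a library, with FDR up to 0.0894 without Heat 0 DAT replicate 3. The other 4 such fits gave 0.0599 without Heat 0 DAT replicate 1, 0.0713 without Heat 4 DAT replicate 2, 0.0548 without Heat 4 DAT replicate 3 and 0.0642 without Heat 4 DAT replicate 4. Of all 101 tags of these repeat-associated families 0 were higher and 3 were lower, the same share as the 2.97% lower over all tags, and the median log2 fold change was -0.11. The most abundant tags of miR1137 and miR1135 showed no called change. miR1137-443-5p averaged 12368 ± 1616 RPM in Heat 4 DAT and 16788 ± 2749 RPM in Heat 0 DAT (log2 fold change -0.44, FDR = 0.234), with no overlap, and miR1135-1184-5p averaged 577 ± 376 RPM in Heat 4 DAT and 589 ± 268 RPM in Heat 0 DAT (FDR = 0.995).

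Taken by length, 17 tags had 18 or 19 nt, of which 6 were called lower and 1 higher, against 2.97% and 2.48% over all tags, and their median log2 fold change was -0.66, against -0.02 over all tags. Without miR166 there remained 12 such tags, 4 of them lower and 0 higher, with a median of -0.83. The medians of the 20 nt, 21 nt, 22 and 23 nt, and 24 nt tags were 0.14, -0.08, 0.12 and 0.02, and of these 185 tags 4 were called higher and 0 lower. In control plants the 18 and 19 nt tags had a median of 0.06 and 0 calls. The authors kept tags that reached 10 RPM in 1 library or more. They applied this to distinct tags before annotation, so their RPM need not be on the scale used here. Under this filter a tag that is rare elsewhere could enter through the libraries of heat-stressed plants where it is high. Of the lower tags, miR1121-18-3p had at most 4 reads in a control library, while miR169-34-3p had up to 60. The part of this filter in the lower level of the short tags was not tested. Under the 4 scalings the median of the short tags was 0.63 to 0.67 below that of all tags. A scaling moves all tags by nearly the same amount, so this distance could hardly change and is no check.

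**Figure D3:**
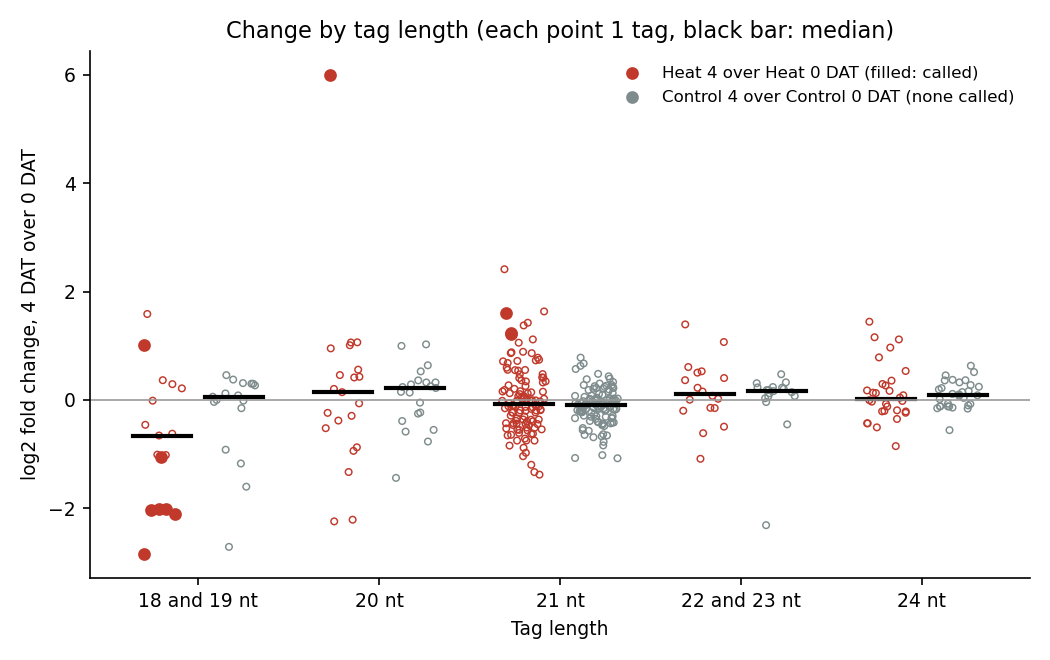
log2 fold change of 4 DAT over 0 DAT for each of the 202 tags by tag length, in heat-stressed plants (red, filled where called) and control plants (grey, none called), with a black bar at the median. The filled points below 0 are all among the 18 and 19 nt tags, whose median in heat-stressed plants is -0.66.

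The share of miRNA reads in 18 and 19 nt tags, which needs no scaling, was 0.316, 0.206, 0.363 and 0.359% in the Heat 4 DAT libraries, against 0.522, 0.749, 0.576 and 0.670% in the Heat 0 DAT libraries. All 4 Heat 4 DAT libraries were below all 4 Heat 0 DAT libraries. The mean was 0.311% ± 0.0734 in Heat 4 DAT and 0.629% ± 0.1004 in Heat 0 DAT (SD, n = 4 each; exact two-sided permutation p = 0.0286, the smallest that 4 against 4 libraries can give, and 0.2 adjusted over the 7 shares compared). The length class was chosen with earlier results of these data known, and it holds the 6 tags called lower. Its p therefore describes these libraries and is no independent support for those calls. The share was lower in 4 of 4 pools, where an exact sign-flip over the pools cannot go below 0.125. It was 0.470% ± 0.102 at 1 DAT, and 0.300% ± 0.0853 in Control 4 DAT and 0.289% ± 0.0445 in Control 0 DAT (exact p = 0.8286). The shares of 20 nt, 21 nt, 22 and 23 nt, 24 nt, miR166 and 5p tags overlapped between the groups, with exact p of 0.0571 to 0.4. Counted without miR166, as an alternative, the share of 21 nt tags differed by -4.59 percentage points between Heat 4 DAT and Heat 0 DAT. Its exact p of 0.0286 is unadjusted and the smallest that 4 against 4 libraries can give. With all tags the difference was 0.688 percentage points, of the other sign (exact p = 0.4).

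The miR166 family held called tags in both directions. miR166-11-5p, from the 5p arm and 21 nt long, had 356, 331, 221 and 240.4 RPM in Heat 4 DAT, against 134, 54.5, 134 and 54.6 RPM in Heat 0 DAT (log2 fold change 1.61, SE 0.39, FDR = 0.0128). Its groups did not overlap, and control plants averaged 396 ± 106 RPM at 4 DAT and 481 ± 109 RPM at 0 DAT. The most abundant tag of the table, miR166-4.1-3p, averaged 590422 ± 130399 RPM in Heat 4 DAT and 405921 ± 117931 RPM in Heat 0 DAT, a log2 fold change of 0.54 that did not pass (FDR = 0.191). Over the 23 tags of the family 2 were higher and 2 lower, with a median of 0.41 under TMM.

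Several miR166 3p tags start at the same base and differ only in where they end, which allowed neighbours to be compared within a library. One such series is shown with the bases beyond its shortest tag in capitals.
miR166-5.1-3p: tcggaccaggcttcaatc
miR166-7.1-3p: tcggaccaggcttcaatcC
miR166-8.2-3p: tcggaccaggcttcaatcCC
miR166-8.1-3p: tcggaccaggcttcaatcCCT
miR166-8.3-3p: tcggaccaggcttcaatcCCTT
The 18 nt tag and the 19 nt tag, 1 base longer, changed in opposite directions. miR166-5.1-3p had 593, 543, 863 and 913 RPM in Heat 4 DAT, against 1456, 1452, 1506 and 1638 RPM in Heat 0 DAT (log2 fold change -1.05, SE 0.31, FDR = 0.0399). This call was lost in 11 of 18 alternative fits, among them the replicate block (FDR = 0.0944) and all fits that left out 1 library except that without Heat 4 DAT replicate 4 (FDR = 0.0516 to 0.138). miR166-7.1-3p had 625, 611, 777 and 732 RPM in Heat 4 DAT, against 301, 372, 403 and 273 RPM in Heat 0 DAT (log2 fold change 1.01, SE 0.27, FDR = 0.0166). It lost the call without Heat 0 DAT replicate 1 (FDR = 0.0599), without Heat 0 DAT replicate 4 (FDR = 0.0719) and without Heat 4 DAT replicate 3 (FDR = 0.0548).

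Set against each other, there were 0.949, 0.889, 1.11 and 1.25 reads of the 18 nt tag for each read of the 19 nt tag in Heat 4 DAT, against 4.83, 3.90, 3.74 and 6.00 in Heat 0 DAT. The groups were far apart, with a mean of 1.05 ± 0.162 in Heat 4 DAT and 4.62 ± 1.04 in Heat 0 DAT (SD, n = 4 each). The log2 ratio in Heat 4 DAT minus that in Heat 0 DAT was -2.13. At 1 DAT the ratio was 2.94 ± 0.724, between both, and in control plants it was 1.02 ± 0.157 at 4 DAT and 0.949 ± 0.207 at 0 DAT. This pair was chosen after its values were seen, so its ratios are a description without a test.

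**Figure D4:**
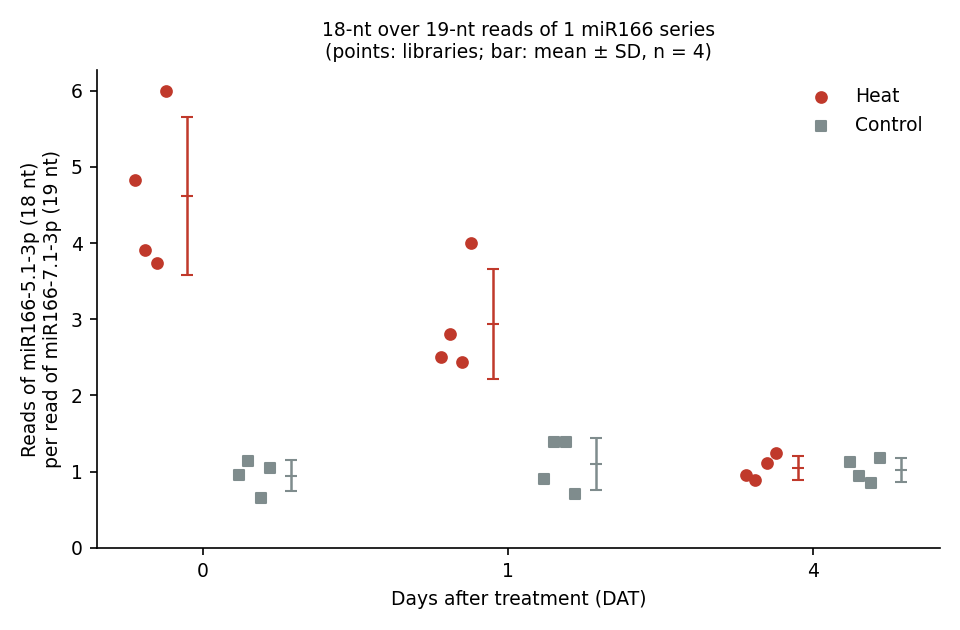
Reads of miR166-5.1-3p (18 nt) per read of miR166-7.1-3p (19 nt) at 0, 1 and 4 days after treatment, drawn at equal spacing, in heat libraries (red circles) and control libraries (grey squares), 4 per group, with bars for the mean ± SD. The Heat 4 DAT libraries lie at 0.889 to 1.25, in the range of the control libraries, and the Heat 0 DAT libraries at 3.74 to 6.00.

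The longer tags of the series did not pass the test. miR166-8.1-3p, of 21 nt and 87.7% ± 3.22 of the reads of the series in Heat 4 DAT and 85.9% ± 2.82 in Heat 0 DAT, averaged 63222 ± 10605 RPM in Heat 4 DAT and 43179 ± 2719 RPM in Heat 0 DAT (log2 fold change 0.55, FDR = 0.0600). The groups of miR166-8.1-3p did not overlap, and it was called higher in 3 of 18 alternative fits. These were DESeq2 (FDR = 0.00201), scaling outside miR166 (FDR = 0.0184) and the fit without Heat 4 DAT replicate 4 (FDR = 0.0377). miR166-8.2-3p and miR166-8.3-3p had log2 fold changes of 0.43 and 0.50 (FDR = 0.394 and FDR = 0.223). miR166-5.2-3p, of 21 nt, which ends with the sequence of miR166-5.1-3p, had one of 0.88 (FDR = 0.143).

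The 18 nt tag of a second series is miR166-13-3p, which differs from miR166-5.1-3p at A16T, counted from the first base. This tag had 15.8, 76.3, 105 and 93.9 RPM in Heat 4 DAT, against 385, 254, 261 and 328 RPM in Heat 0 DAT (log2 fold change -2.02, SE 0.42, FDR = 0.00311). No library of Heat 4 DAT reached the level of any library of Heat 0 DAT. Control plants averaged 62.9 ± 28.9 RPM at 4 DAT and 45.9 ± 16.7 RPM at 0 DAT. Its longer forms miR166-1-3p (19 nt), miR166-6-3p (20 nt), miR166-9-3p (21 nt) and miR166-4-3p (22 nt) had log2 fold changes of -0.01, 0.46, 0.40 and 0.40 and did not pass. miR166-12.2-3p, which holds miR166-13-3p with 1 base more at the start, averaged 977 ± 158 RPM in Heat 4 DAT and 1342 ± 214 RPM in Heat 0 DAT (log2 fold change -0.46, FDR = 0.382). Within the second series miR166-13-3p made up 0.0210% ± 0.0126 of the reads in Heat 4 DAT and 0.117% ± 0.00932 in Heat 0 DAT.

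Among all tags, 32 are the start of a longer tag. The log2 ratio of such a tag to the next longer one did not overlap between the groups for 6 pairs (18.8%), lower in Heat 4 DAT for 3 (9.38%) and higher for 3 (9.38%). The ratio was lower for miR166-5.1-3p and miR166-13-3p, both of 18 nt, and for miR167-1-5p, a 21 nt start of the 22 nt miR167-2-5p from the family that restrains auxin response factors. miR167-1-5p had 483, 279.8, 211 and 207 RPM in Heat 4 DAT, against 1104, 536, 1014 and 415 RPM in Heat 0 DAT (log2 fold change -1.38, FDR = 0.0600). Its groups overlapped although it was lower in 4 of 4 pools, and miR167-2-5p averaged 16315 ± 7858 RPM in Heat 4 DAT and 16261 ± 5269 RPM in Heat 0 DAT (FDR = 0.995). The ratio was higher for miR156-3-5p to miR156-4-5p, miR9772-6-5p to miR9772-4-5p and miR169-43.1-3p to miR169-43.2-3p, pairs named here after their values were seen. In the last pair the longer tag, of 20 nt, averaged 29.9 ± 12.8 RPM in Heat 4 DAT and 136 ± 48.0 RPM in Heat 0 DAT (FDR = 0.0797), so that the shorter tag was not the lower one in every such pair.

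**Figure D5:**
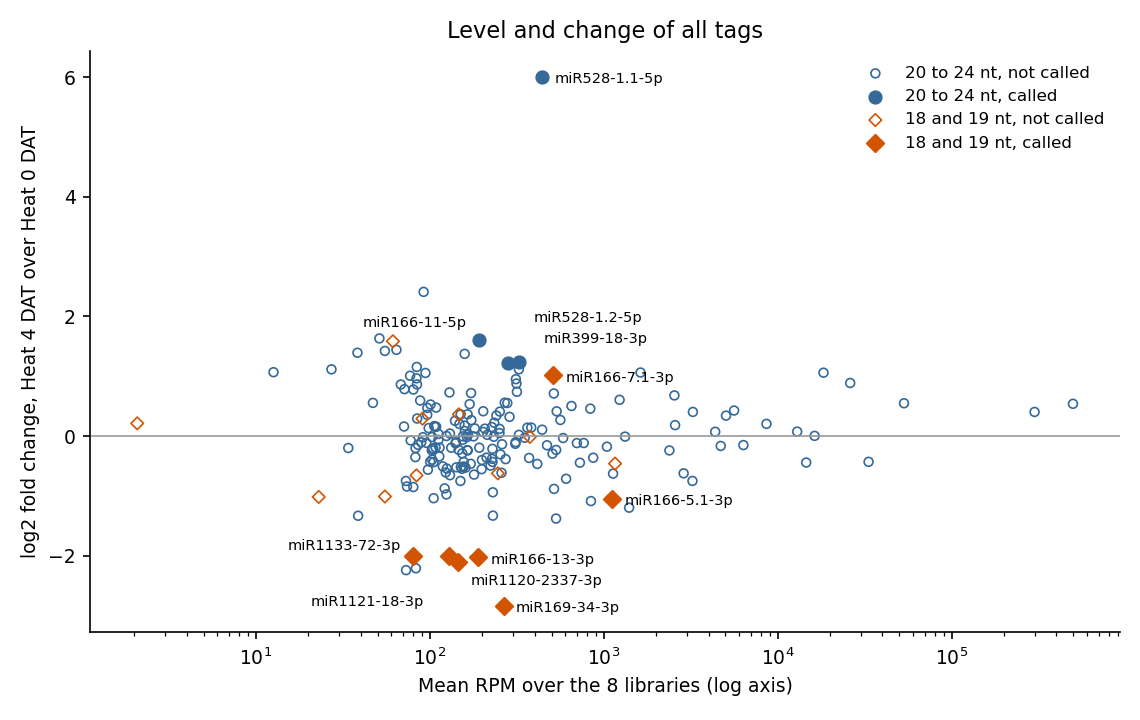
log2 fold change of Heat 4 DAT over Heat 0 DAT against the mean RPM over the 8 libraries (log axis) for all 202 tags, with 18 and 19 nt tags as orange diamonds, longer tags as blue circles and called tags filled. The tag at the top is miR528-1.1-5p, with a log2 fold change of 6.00, and 3 of the other 4 called tags above 0 are longer than 19 nt.

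The remaining conserved families gave no calls. The most abundant tag of miR156, which restrains SPL factors, was miR156-1.1-5p, with 33864 ± 15415 RPM in Heat 4 DAT and 18299 ± 6721 RPM in Heat 0 DAT (log2 fold change 0.89, FDR = 0.348). miR159f-1, directed against MYB factors, averaged 2199 ± 793 RPM in Heat 4 DAT and 1052 ± 420.4 RPM in Heat 0 DAT (log2 fold change 1.06, FDR = 0.172), and its log2 change in control plants was 1.03. miR171-7-3p, directed against GRAS factors, had 427, 279.8, 384 and 364 RPM in Heat 4 DAT, against 636, 735, 708 and 601 RPM in Heat 0 DAT. Its groups did not overlap, but the FDR was 0.0797, and control plants had a log2 change of -0.77. miR319g-1, directed against TCP factors, and miR396-5-5p, directed against growth-regulating factors, had log2 fold changes of 0.42 and -0.43 (FDR = 0.382 and FDR = 0.484). The 20 nt tag miR396-3-5p, named after its values were seen, lay just outside the threshold, with 129 ± 54.4 RPM in Heat 4 DAT and 332 ± 78.5 RPM in Heat 0 DAT (log2 fold change -1.33, FDR = 0.0533). Over the 55 tags of the transcription factor families 2 were higher and 3 lower, against 2.48% and 2.97% over all tags, and 4 of these 5 calls came from miR166, which held 23 of the 55. The list had a median of 0.14, which was above that of all tags under each of the 4 scalings. As these move all tags nearly alike, they are no check of that order.

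miR393 restrains the auxin receptors of the TIR1 group and miR394 another F-box protein. miR393-6-5p averaged 4432 ± 644 RPM in Heat 4 DAT and 4968 ± 841 RPM in Heat 0 DAT (log2 fold change -0.16, FDR = 0.842), and miR394-3-5p averaged 149.7 ± 82.2 RPM in Heat 4 DAT and 180.4 ± 76.3 RPM in Heat 0 DAT (FDR = 0.842). With miR9772, of which miR9772-5-5p was the most abundant (log2 fold change -0.36, FDR = 0.394), these families held 11 tags, 0 of them called and 3 at an unadjusted p below 0.05, with a median of -0.44 and 10 of the 11 below 0 under TMM. The cereal families gave 0 calls over 16 tags, 3 of them at an unadjusted p below 0.05, with a median of 0.09. miR9662-1.1-3p averaged 9227 ± 2863 RPM in Heat 4 DAT and 8001 ± 2383 RPM in Heat 0 DAT (log2 fold change 0.21), and miR9669-1.1-5p averaged 13272 ± 2717 RPM in Heat 4 DAT and 12588 ± 1621 RPM in Heat 0 DAT (log2 fold change 0.08). From the other arm of the miR9662 precursor, miR9662-1.3-5p, named after its values were seen, had 2857, 3578, 2685 and 3418 RPM in Heat 4 DAT, against 1807, 1779, 2266 and 1966 RPM in Heat 0 DAT (log2 fold change 0.68, FDR = 0.0600).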

How the data were processed

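The deposited values were raw read counts, whole numbers of reads per distinct miRNA tag, in 24 libraries. Per the study's methods, the authors removed adapters and low quality reads, retained reads of 18 to 24 nt, kept the tags that reached 10 RPM in 1 library or more, matched a pre-miRNA locus of IWGSC RefSeq v1.0 with Bowtie2 and folded into a hairpin with RNAfold, and pooled RNA from 18 plants per library. They also required a stable hairpin and looked for the star sequence on the opposite arm. The version of Bowtie2 or RNAfold was not given in the sources used here. Thus the table holds only tags that passed these filters, and its totals are miRNA reads, not whole libraries. Of the tags, 35 were deposited as the reverse complement of the mature sequence and were turned. The count table held 0 columns of other samples. The precursor sequence and its locus came from a supplementary table of the study.

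Counts were fitted with edgeR 4.0.16 (R 4.3.3, limma 3.58.1) by TMM scaling and the quasi-likelihood test over all 24 libraries in 6 groups, without a filter on low counts and with Benjamini-Hochberg adjustment over 202 tags (FDR below 0.05). The common dispersion was 0.128. RPM are reads per 1000000 of the library total times its TMM factor, so that the RPM of a library need not sum to 1000000. TMM factors were 0.666 to 0.900 in Heat 4 DAT and 0.867 to 1.267 in Heat 0 DAT. Shares of reads were compared by exact two-sided permutation tests, where 4 against 4 libraries cannot go below p = 0.0286 (scipy 1.17.1, numpy 2.4.6, pandas 2.3.3, Python 3.11.15). PCR copies carry no molecular identifier here, so intervals and floors describe the counting error alone. The script was tested on simulated data. No pair of replicates was a duplicate, with a chi-square per degree of freedom of 5.44 to 71.5.

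A replicate number stands for the same pool of plants on each day of a treatment, by the study's methods, while its own test had no block, so the block was an alternative. Over 122 tags with a mean count of at least 20, the deviations from the group mean at 4 DAT and at 0 DAT correlated for heat pools 1 to 4 with r of 0.0349, -0.181, 0.0416 and -0.272, and for control pools with 0.0919, -0.106, 0.162 and -0.381. No heat pool correlated highest with its own number, and of the control pools only pool 3 did, so the pairing rests on the study's methods. Alternatives were DESeq2 1.42.0 and its size factors, other scalings, a filter on low counts, a likelihood ratio test, thinning to equal depth, a fit of these groups alone and leaving out each library.

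Named were all called tags, the tags that the study's text lists for this contrast, all tags of miR528, miR398, miR399 and miR395, the most abundant tag of 15 further families, and longer tags that begin or end with a called tag. Tags named outside this rule are marked. Members and lists were chosen with earlier results of these data known.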

Additional observations from a re-analysis of the deposited data

Results flagged for a closer look

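In 7 of 120 groups of 4 libraries, 1 library stood apart from the other 3 by Dixon's test at 95%, where chance gives about 1 in 20. miR166-4.1-3p had 785116 RPM in Heat 4 DAT replicate 2, against 508803 to 538958 RPM in the other 3 libraries of that group. The same library was highest for miR396-5-5p, with 41593 RPM against 22464 to 25140.2 RPM, and for miR9669-1.1-5p, with 17332 RPM against 11633 to 12194 RPM. It also had the lowest TMM factor of the 8 libraries, 0.666, and the part of this factor in these levels was not tested. miR167-2-5p had 28043 RPM in Heat 4 DAT replicate 1, against 11299 to 13109.6 RPM in the other 3. miR166-8.3-3p had 736 RPM in Heat 0 DAT replicate 1, against 459 to 499 RPM in the other 3. miR395-7-3p had 7.51 RPM in Heat 4 DAT replicate 4 and 9.08 RPM in Heat 0 DAT replicate 2, and no read in the other 3 libraries of either group. None of these 6 tags was called.

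The change over the days of recovery differed between heat-stressed and control plants for both called tags of miR528, by 6.58 on the log2 scale for miR528-1.1-5p and by 1.70 for miR528-1.2-5p, tested as the difference of the changes. The call for miR528-1.1-5p was made in each alternative. That for miR528-1.2-5p was lost with the library total (FDR = 0.449), the replicate block (FDR = 0.109) and thinning to the smallest of 24 (FDR = 0.291). It was also lost in most fits that left out 1 library.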

How the results depend on the processing

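The count of called tags was 5 higher and 6 lower. It was 5 and 7 with DESeq2 size factors, 1 and 13 with the library total, 8 and 5 with scaling outside miR166, 7 and 12 with DESeq2, 5 and 11 with the likelihood ratio test, and 7 and 11 with only these 2 groups fitted. Thinned to 58501 reads, the smallest of the 24 libraries, it was 1 and 2, and with the heat libraries thinned to 68947 reads it was 3 and 4. Fewer tags were thus called at these lower depths, each from 1 random thinning. Leaving out 1 library gave 3 to 7 higher and 4 to 9 lower. With the replicate block it was 5 and 6, with 10 of the 11 tags shared: miR166-5.1-3p was lost and miR169-35-3p gained, and beside these and the difference for miR528-1.2-5p the block changed no call among the named tags. The difference from control plants was called for 2 tags, for 1 with the library total, the replicate block and thinning to the smallest of 24, for 4 with scaling outside miR166, for 7 with DESeq2 and for 7 with the likelihood ratio test, and for 1 to 2 with a library left out. The 2 called families were 1 to 4 with a library left out, and with the library total miR399 was not called (FDR = 0.0728). The share of 18 and 19 nt reads differed by -0.318 percentage points, with p = 0.125 by an exact sign-flip over pools (the replicate block), and by -0.354 to -0.278 with a library left out (exact p = 0.0571, the smallest that 3 against 4 can give). The cause was not tested for the other changes.

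No called tag changed direction in any alternative. Log2 fold changes of uncalled tags that changed sign were, with the library total, miR395-18-3p -0.26, miR395-7-3p -0.12, miR167-2-5p -0.35, miR319g-1 -0.041, miR9662-1.1-3p -0.19, miR9669-1.1-5p -0.39, miR166-9-3p -0.0043, miR156-4-5p -0.32 and miR9772-6-5p -0.049. With scaling outside miR166 miR1135-1184-5p was at 0.15 and miR166-1-3p at 0.16. With DESeq2 miR395-7-3p was at -0.17, miR167-2-5p at -0.0217 and miR156-4-5p at -0.016, and with its size factors alone these were at -0.0217 and -0.0073. With the replicate block miR395-7-3p was at -0.23, miR167-2-5p at -0.037 and miR1135-1184-5p at 0.079. Thinned to the smallest of 24, miR398-1.1-5p was at -0.10, miR167-2-5p at -0.014, miR1135-1184-5p at 0.20, miR156-4-5p at -0.068 and miR9772-6-5p at -0.14. With the heat libraries thinned, miR395-7-3p was at -2.02, miR167-2-5p at -0.0503, miR1135-1184-5p at 0.11, miR166-1-3p at 0.014 and miR156-4-5p at -0.018, and with 2 groups fitted miR166-1-3p was at 0.018. With a library left out the ranges were -1.22 to 2.06 for miR395-18-3p, -2.36 to 1.01 for miR395-41-3p, -1.89 to 2.15 for miR395-7-3p, -0.18 to 2.26 for miR398-1.1-5p, -0.39 to 0.16 for miR167-2-5p, -0.52 to 0.055 for miR394-3-5p, -0.031 to 0.33 for miR9662-1.1-3p, -0.079 to 0.16 for miR9669-1.1-5p, -0.54 to 0.26 for miR1135-1184-5p, -0.55 to 0.21 for miR166-1-3p and -0.19 to 0.37 for miR156-4-5p. With miR166 left out of the total, the shares of 21 nt, 24 nt and 5p reads differed by -4.59, 0.0383 and 2.15 percentage points.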
